A study of Mus musculus with 4 samples.

Results

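A set of 392 cells rich in Clu and Fxyd4 transcripts was examined in the ventral prostate of mice carrying hormone pellets. A cell belonged to the set when it came from a te2 library, had at least 1000 unique molecular identifiers (UMIs, each standing for 1 captured transcript) and had at most 20% of them from mitochondrial genes. Clu and Fxyd4 together had to reach at least 5 UMIs and 0.2% of the cell's UMIs. Cells with 0.2% or more Smr2 and Smr2l, 10% or more Sbp and Spink1, 0.2% or more Krt5, Krt14 and Krt15, or over 1 UMI of the 3 C1q genes were left out. The set, called the state below, held 183 cells of te2 replicate 1 and 209 of te2 replicate 2, out of 3938 te2 cells and 6329 cells in all that passed the UMI and mitochondrial limits. The 4 tables hold 11245 cells. The members were chosen by measured values of these same libraries, the UMIs of the genes just named, so the comparisons of the state with other cells below are descriptions and carry no p-value.

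The series was made from wild-type (wt) C57BL6j mice under the heading of steroid hormone imbalance, with 2 mice coded sham and 2 coded te2. What te2 and the sham procedure consisted of is not given in the sources used here, nor is the age of the mice. Hormone pellets were placed in the animals and the ventral lobes were taken 2 weeks later. Each library is 1 animal, whose paired lobes were digested at low temperature with a protease from Bacillus licheniformis, and 7000 cells were loaded per library on a droplet platform that counts the 3′ ends of transcripts.

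The luminal epithelium of the mouse ventral prostate is made largely of tall secretory cells, which release large amounts of a few proteins into the gland's lumen under the control of androgens. Toward the urethra the ducts are lined by proximal luminal cells, which secrete less of those products, carry Krt4, Psca and Ly6a, and become more prominent when androgens are withdrawn. Mucosal epithelia can defend their surface by moving immunoglobulin A into the lumen, by releasing antimicrobial proteins and by making acute phase proteins, which are best known from the liver during infection. Clu encodes clusterin, a secreted chaperone that is raised in the prostate after castration. Fxyd4 encodes a small membrane protein that modulates the sodium pump.

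Sham replicates 1 and 2 held 3999690 and 5513275 UMIs, and te2 replicates 1 and 2 held 12259610 and 13134017. Cells of the state had a median of 5483 and 6600 UMIs in te2 replicates 1 and 2, against 8817.5 and 10666 in secretory luminal cells, defined as cells with at least 10% Sbp and Spink1 (370 and 460 cells). The median share of mitochondrial UMIs was 5.75% and 6.64% in the state and 3.94% and 4.13% in secretory cells. With at most 10% mitochondrial UMIs, 911 genes were called between the state and secretory cells by the rule given below, beside 973 with the limit of 20%. A doublet caller marked 11 and 29 of the te2 cells that passed the limits, and none of them was in the state. The libraries shared 1 to 5 cell barcodes with one another, and 1 barcode of the state occurred in another library. Markers of macrophages, fibroblasts, smooth muscle and lymphocytes were low in the state, and those of basal cells were higher than in secretory cells. The 12 macrophage markers, among them the 3 C1q genes limited by the rule, summed to 58.9 and 50.7 CPM (UMIs of a gene per 1000000 UMIs of the group) in the state against 25203 and 24818 CPM in cells with at least 5 C1q UMIs, and 3 and 4 of the 12 were at 0. Most of the sum in the state came from Mrc1, a mannose receptor, at 44.2 and 42.7 CPM against 7.55 and 3.85 CPM in secretory cells, and it was called higher. The 9 fibroblast markers summed to 31.2 and 28.0 CPM, with 4 of the 9 at 0 in each library, and the 7 smooth muscle markers to 0 and 1.33 CPM, with 7 and 5 at 0. T or NK cell markers summed to 39.0 and 25.3 CPM, with 7 and 9 of 12 at 0. The 12 basal markers, among them the 3 keratins limited by the rule, summed to 455 and 417 CPM in the state and 215 and 203 CPM in secretory cells. In the cells with at least 5 C1q UMIs the basal markers summed to more than in the state, at 531 and 493 CPM.

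The rule used Clu and Fxyd4 as a sum, and the 2 genes were not equally spread. Clu stood at 2887 and 4829.8 CPM in the state of te2 replicates 1 and 2 and at 797 and 1034 CPM in secretory cells. Fxyd4 stood at 2049 and 1646 CPM in the state and at 95.2 and 40.4 CPM in secretory cells. These levels follow from the rule. No Fxyd4 UMI was seen in 44 and 49 cells of the state, and no Clu UMI in 0 and 3.

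Levels just inside and just outside the Clu and Fxyd4 threshold showed no sharp edge for Saa1 or Pigr. The 42 and 23 cells with 0.2 to 0.25% Clu and Fxyd4 had 214 and 307 CPM of Saa1, and the 52 and 35 cells left out at 0.15 to 0.2% had 244 and 347 CPM. For Pigr the same pairs of bins held 4571 and 5729 CPM inside and 3987 and 4749 CPM outside. Both genes stayed within 1.5 times across the threshold, whereas Krt4 and Gpx3 differed by more in replicate 2. Krt4 was at 159 and 180.3 CPM inside and 177 and 77.5 CPM outside, and Gpx3 at 745 and 1076 CPM and 913 and 583 CPM. Another 40 and 58 cells met every limit except that on Sbp and Spink1, 15 and 16 every limit except that on basal keratins, 53 and 39 every limit except that on Smr2 and Smr2l, and 3 and 0 every limit except that on C1q.

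The upstream sequences of 4 acute phase genes are shown first, and no level or call below was computed from them. Saa1 and Saa2 are near copies whose UMIs may have been split between them, which these windows cannot settle. The sequences are the 250 bases before the gene start, 5′ to 3′, from RefSeq on build GRCm38.p6, whereas the submitters' processing notes name GRCm39 for the count tables. They lie at chr7:46742981-46743230 on the minus strand for Saa1, chr7:46751583-46751832 on the plus strand for Saa2, chr2:32387740-32387989 on the minus strand for Lcn2 and chr17:56121947-56122196 on the minus strand for Lrg1. Capitals mark matches to the C/EBP motif TTGCNNAA. C/EBP factors are known regulators of acute phase genes.
Saa1: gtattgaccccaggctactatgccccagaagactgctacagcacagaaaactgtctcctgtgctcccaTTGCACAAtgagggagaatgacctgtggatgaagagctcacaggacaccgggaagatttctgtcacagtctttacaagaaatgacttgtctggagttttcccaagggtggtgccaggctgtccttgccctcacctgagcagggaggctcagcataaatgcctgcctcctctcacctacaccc
Saa2: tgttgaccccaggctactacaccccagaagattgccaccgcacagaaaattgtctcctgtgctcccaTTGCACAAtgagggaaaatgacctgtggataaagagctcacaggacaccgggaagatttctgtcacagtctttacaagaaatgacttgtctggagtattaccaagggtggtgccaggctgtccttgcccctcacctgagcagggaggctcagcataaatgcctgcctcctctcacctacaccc
Lcn2: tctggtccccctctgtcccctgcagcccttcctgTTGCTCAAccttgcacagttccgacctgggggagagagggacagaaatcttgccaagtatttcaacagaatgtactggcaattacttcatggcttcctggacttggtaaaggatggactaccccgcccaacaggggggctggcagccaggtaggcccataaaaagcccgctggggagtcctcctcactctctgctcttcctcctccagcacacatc
Lrg1: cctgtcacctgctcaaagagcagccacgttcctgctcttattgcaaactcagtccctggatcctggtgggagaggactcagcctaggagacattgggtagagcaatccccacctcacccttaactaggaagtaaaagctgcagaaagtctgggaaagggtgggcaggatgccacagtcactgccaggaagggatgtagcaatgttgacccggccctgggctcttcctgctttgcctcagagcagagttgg
The Saa1 and Saa2 windows differ by 13 single-base substitutions, insertions or deletions over 250 bases. Both hold the same match, TTGCACAA, which begins 182 bases before the start in Saa1 and 183 in Saa2. Lcn2 holds TTGCTCAA, beginning 216 bases before the start, and the Lrg1 window holds no match to any motif searched. The motifs searched on both strands were TTGCNNAA, the STAT motif TTCNNNGAA and the NF-kB motif GGNNTTTCC, with no overlap between matches in these windows. Of 32851 RefSeq promoter windows of the same length, 9.56% held TTGCNNAA, 7.02% TTCNNNGAA and 4.93% GGNNTTTCC. Of the 12 genes looked up, which were the acute phase genes called below and the 7 markers of the state, 9 had a window. These 9 genes had 12 windows between them, and 5 of the genes held a match to at least 1 of the 3 motifs. Of the 32851 windows, 6560 held such a match. A gene with more than 1 window, such as Il1rn, had more chances to match. The match shared by the near copies Saa1 and Saa2 was counted for each. The count of genes therefore cannot be set against the share of windows. The matches are letters only and name no bound site.

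Cells of the same thresholds were rare in sham. They made up 8.90% (exact 95% binomial interval 7.70 to 10.2) and 11.1% (9.73 to 12.6) of the cells that passed the limits in te2 replicates 1 and 2. In sham they were 9 of 951 cells, or 0.946% (0.434 to 1.79), and 28 of 1440 cells, or 1.94% (1.30 to 2.80). Both te2 libraries lay above both sham libraries. Cells that passed were shallower in sham, at a median of 2477 and 2584 UMIs, than in te2, at 4138 and 4966, and the limit of 5 UMIs is harder to meet in a shallow cell. After each cell was thinned to 1000 UMIs, where 5 UMIs are 0.5%, the shares were 0.421% and 0.903% in sham and 3.89% and 5.85% in te2. Both genes of the threshold were also higher in te2 among secretory cells, which lie outside the state. Clu was at 797 and 1034 CPM there against 106 and 68.7 CPM in sham, and Fxyd4 at 95.2 and 40.4 against 1.12 and 1.10 CPM. The part of this general difference in the shares was not tested. The rule was drawn from te2 cells, so the difference in shares is a description. The intervals cover counting error only.

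**Figure D1:**
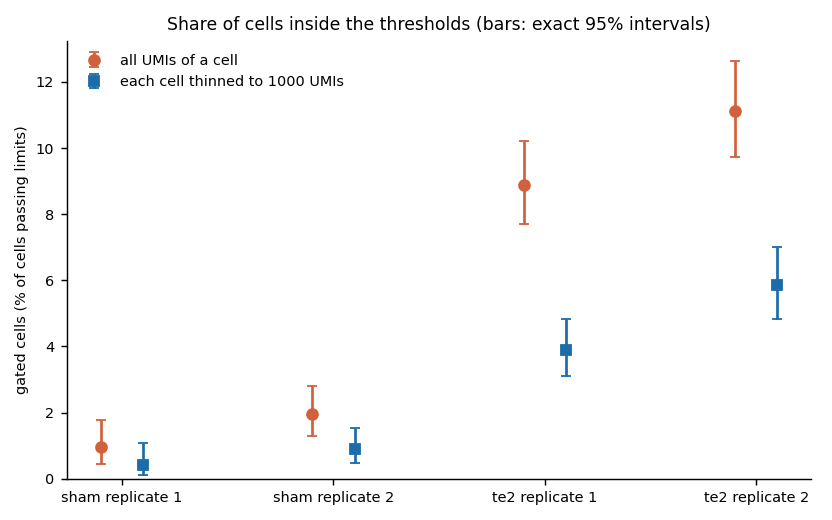
Share of cells inside the thresholds, in percent of the cells with at least 1000 UMIs and at most 20% mitochondrial UMIs, for each library. Points are shares, bars are exact 95% binomial intervals, circles use all UMIs of a cell and squares use cells thinned to 1000 UMIs. The te2 libraries sit at 8.90% and 11.1% with all UMIs, above the sham libraries at 0.946% and 1.94%.

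Raw UMI counts were summed over the cells of each library and group and scaled to CPM, and the ratio of the state to secretory luminal cells was taken within each library. A gene was called higher or lower when it differed at least 2-fold in the same direction in both te2 libraries, with at least 10 counts in the higher group of each. Of 9534 genes with enough counts, 861 were called higher in the state (9.03%) and 112 lower (1.17%). Sbp and Spink1, both limited by the rule, held 25.2% and 29.0% of the UMIs of secretory cells and 1.43% and 2.04% of those of the state. The median log2 ratio of all genes was 0.49 and 0.56 for that scaling. With TMM factors, which centre the bulk of the genes, the median was -0.05 and -0.03, and 239 of 10021 genes were called higher (2.38%) and 264 lower (2.63%). The log2 ratios below are scaled by totals and should be read against a shift of about 0.49 to 0.56. Genes called higher by totals that were not called with TMM factors are named as such.

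Acute phase genes came out higher in the state in both mice. Of 19 genes of the list found in the tables, 10 had enough counts, 7 were called higher and 0 lower by totals, and 6 higher and 1 lower with TMM factors. Background shares were 9.03% and 2.38% of genes called higher. The median log2 ratio of the list's genes with enough counts was 1.66 and 2.12, beside 0.49 and 0.56 over all genes.

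Saa1, which encodes an acute phase apolipoprotein of high-density lipoprotein, stood at 585 and 1262 CPM in the state of te2 replicates 1 and 2 and at 109 and 139.6 CPM in secretory cells. The state was the higher group in each mouse, and its level was higher in replicate 2 than in replicate 1, by 1.11 on the log2 scale in the state and by 0.35 in secretory cells. The ratio within a library was 5.35 and 9.04 times, a mean log2 ratio of 2.80 ± 0.54 (SD, n = 2 libraries). Saa2, its near copy, had 13 and 11 counts in the state and 11 and 11 in the far deeper sums of secretory cells. How UMIs shared by the copies were counted is not given in the sources used here, so the split between them is uncertain.

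Lrg1, which encodes a leucine-rich glycoprotein of the acute phase, was at 298 and 854 CPM in the state and 102 and 178 CPM in secretory cells, a mean log2 ratio of 1.91 ± 0.50 (SD, n = 2). Replicate 2 was again the higher mouse, by 1.52 on the log2 scale in the state and by 0.81 in secretory cells. Lcn2 encodes lipocalin 2, which withholds iron from bacteria by binding their siderophores. It was at 176 and 267 CPM in the state and 30.5 and 54.6 CPM in secretory cells (2.41 ± 0.17).

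Lbp, whose product carries bacterial lipopolysaccharide to its receptor complex, differed little between the mice, at 76.2 and 75.3 CPM in the state against 8.16 and 6.9 CPM in secretory cells (3.34 ± 0.16). Il1rn, the antagonist of the interleukin 1 receptor, had 16 and 34 counts in the state and 7 and 6 in secretory cells, at 13.9 and 22.7 and 2.11 and 1.22 CPM. It passed the count limit through the state alone. Steap4, a metalloreductase, was at 19.1 and 51.3 CPM against 8.46 and 13 CPM and was not called with TMM factors. Saa3 did not share this pattern. It stood at 970.1 and 893 CPM in the state, 604 and 558 CPM in secretory cells and 1034 and 979 CPM in the C1q macrophages, and no call was made. Crp, which encodes C-reactive protein, had 6 and 6 counts in the state and was the gene called lower with TMM factors. Basal cells, with 0.2% or more Krt5, Krt14 and Krt15, stood above the state for some of these genes. Lcn2 was at 338 and 388 CPM there, Lbp at 139 and 145 CPM and Saa3 at 1513 and 1583 CPM. Saa1 at 6.64 and 25.2 CPM and Lrg1 at 76.4 and 133 CPM were below the state.

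Free RNA in droplet data can give UMIs in cells that do not make a gene, so levels in C1q macrophages of the same libraries were taken as a reference. Saa1 was at 7.3 and 23.8 CPM there, Lrg1 at 36.5 and 47.6 CPM, Lcn2 at 24.3 and 54.4 CPM and Lbp at 34.1 and 27.2 CPM. After thinning to 1000 UMIs, a Saa1 UMI was seen in 22.4% and 40.2% of cells of the state, 6.49% and 7.39% of secretory cells and 0.99% and 2.82% of macrophages. Unthinned, the shares were 42.1% and 55%, 23.8% and 20.7% and 2.97% and 5.63%, with median depths of 5483 and 6600, 8817.5 and 10666, and 2670 and 2401 UMIs. The share in the state was above both other groups in each library. For Lrg1 the thinned shares were 20.8% and 42.6% in the state, 6.49% and 12.4% in secretory cells and 1.98% and 1.41% in macrophages.

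Saa1 was concentrated in few cells. The 10% of cells of the state with the most Saa1, 19 and 21 cells, held 77.8% and 64.9% of its UMIs, and 57.9% and 45% of the cells had none. The 10% with the most Pigr held 25.3% and 24.4% of the Pigr UMIs, and every cell of the state had at least 1. Lrg1, Lcn2 and Ly6c1 lay between, with 47.1% and 47.3%, 50.7% and 50.6% and 47.7% and 41.8% of their UMIs in the top 10% of cells. These shares also depend on how many UMIs a gene has.

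**Figure D2:**
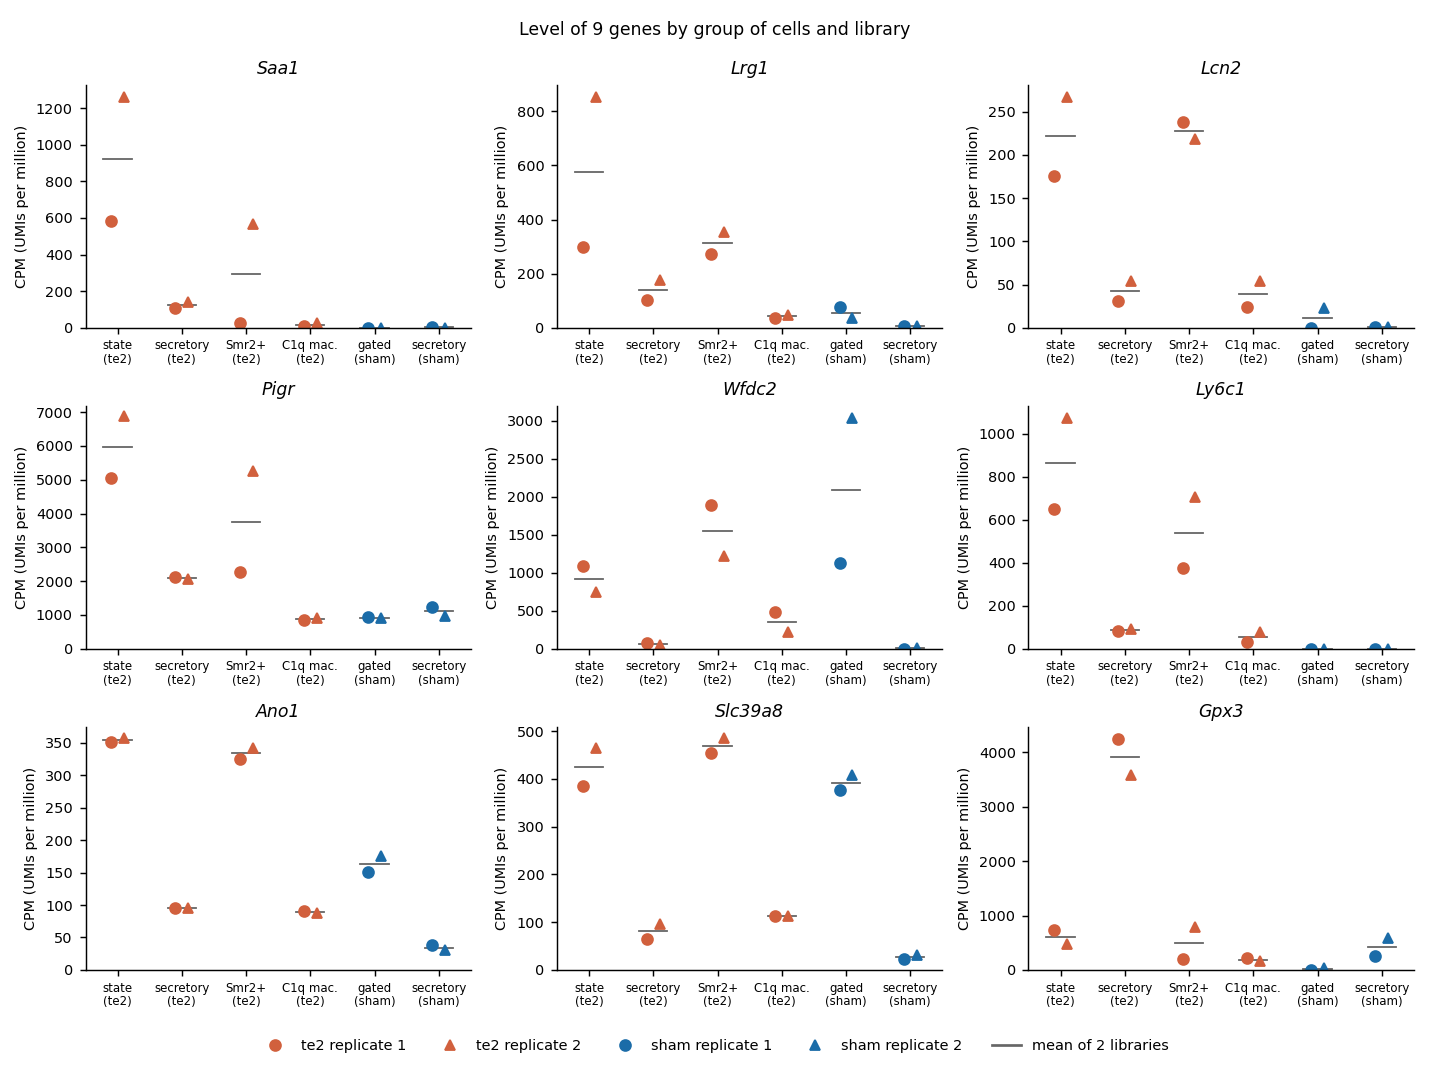
Levels of 9 genes in CPM, by group of cells; red marks are te2 libraries and blue marks sham libraries, circles replicate 1 and triangles replicate 2, with lines at the mean of 2 libraries. Saa1, Lrg1, Lcn2, Pigr, Wfdc2, Ly6c1, Ano1 and Slc39a8 are higher in the state than in secretory cells of the same te2 library, and Gpx3 is lower. The sham gated cells are 9 and 28 cells.

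Mucosal defence genes formed the list with the most genes called after the proximal luminal list. Of 29 in the tables, 15 had enough counts and 12 were called higher and 0 lower by totals, or 8 higher and 1 lower with TMM factors (background 9.03% and 2.38% higher). The list's median log2 ratio was 2.41 and 1.95.

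Pigr encodes the receptor that carries polymeric immunoglobulins across the epithelium. It stood at 5039 and 6870.0 CPM in the state and 2132 and 2075 CPM in secretory cells, so that every mouse had more in the state. The mean log2 ratio was 1.48 ± 0.34 by totals, and Pigr was not called with TMM factors. Fam3d, which encodes a secreted protein of mucosal epithelia, was at 1899 and 1693 CPM against 923 and 787 CPM (1.07 ± 0.05) and was likewise not called with TMM factors. Both genes had been proposed as markers of the state, and their ratios were smaller than those of Saa1 and Ly6c1.

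Wfdc2 encodes a secreted protein of the whey acidic protein family, found in many mucosal epithelia. It was at 1084 and 744 CPM in the state and 70.1 and 52.9 CPM in secretory cells, 15.5 and 14.1 times higher (3.88 ± 0.10). The level in C1q macrophages was 479 and 224 CPM, above that in secretory cells. Ly6c1, a member of the Ly6 family of surface proteins, was at 649.6 and 1074 CPM against 84 and 91.1 CPM (3.26 ± 0.43), and UMIs shared with its near copy Ly6c2 make the assignment uncertain. Cxcl17, a mucosal chemokine, was at 835 and 853 CPM against 157 and 123 CPM (2.60 ± 0.28). Pglyrp1, a peptidoglycan recognition protein with antibacterial activity, was at 178 and 115 CPM against 25.7 and 21.9 CPM (2.59 ± 0.28).

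Further called genes of the list, most of them of low level, are given next. A call required the same direction in both mice, so their agreement follows from the calling rule. Dmbt1, which encodes a mucin-like protein that binds bacteria, had 50 and 63 counts in the state and 6 and 2 in secretory cells. Reg3g, an antibacterial lectin of the gut, had 14 and 47 counts against 1 and 2. Dmbt1 and Reg3g passed the count limit through the state alone. Ltf, which encodes the iron-binding lactoferrin, was at 30.3 and 41.3 CPM against 3.93 and 2.84 CPM, and Duoxa1, the maturation factor of a peroxide-making dual oxidase, at 27.7 and 22 CPM against 4.53 and 5.68 CPM. Ceacam1, an adhesion molecule, was at 739.7 and 609 CPM against 266 and 230.4 CPM, and Ccl28, a chemokine that draws cells making immunoglobulin A, at 18.2 and 41.3 CPM against 7.25 and 13.8 CPM. The last 2 were not called with TMM factors.

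Agr2 and Msmb went against the rest of the list. Agr2, a protein disulfide isomerase that helps fold mucins, was at 879 and 917 CPM in the state and 1351 and 1459 CPM in secretory cells, not called by totals and called lower with TMM factors. Msmb, a major secreted protein of the prostate, was at 87.5 and 12.7 CPM in the state and 17.2 and 197 CPM in secretory cells. The state was thus the higher group in replicate 1 and the lower in replicate 2, and the mice disagreed in direction. Most complement genes were under the count limit. Of 21 complement genes and regulators in the tables, 3 had enough counts, none was called by totals and Serping1, an inhibitor of the first complement component, was called lower with TMM factors at 2 and 1 counts in the state.

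**Figure D3:**
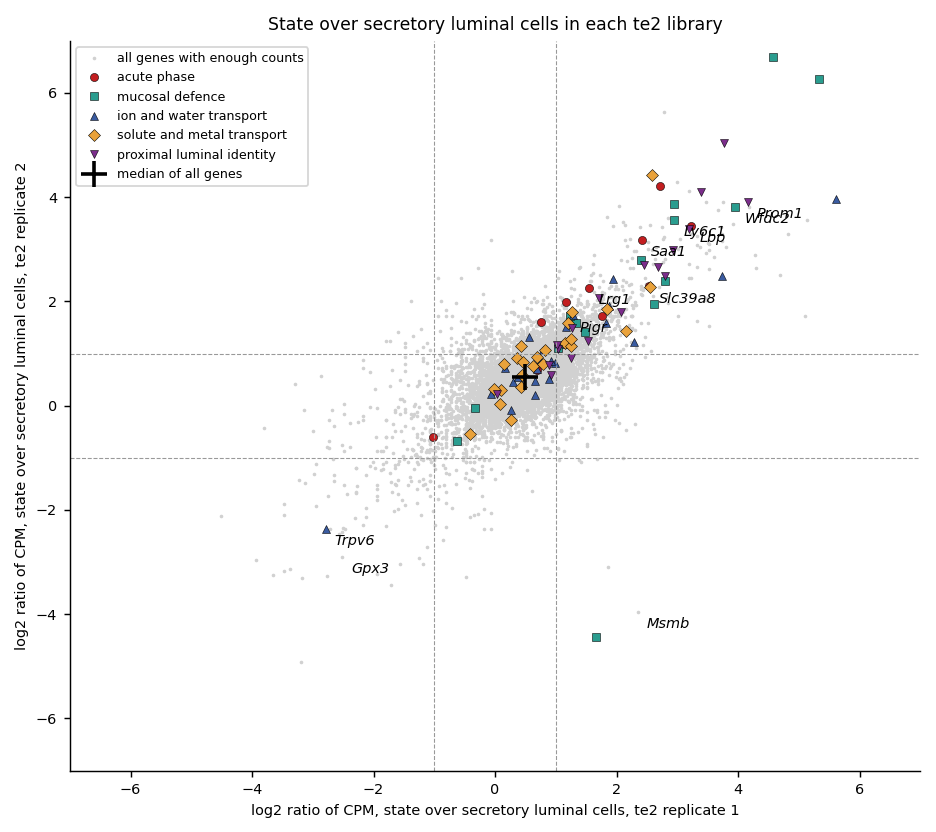
Log2 ratio of CPM, state over secretory luminal cells, in te2 replicate 1 (horizontal) and te2 replicate 2 (vertical), with all genes with enough counts in grey, 5 gene lists in colour, the median of all genes as a cross and dashed lines at 2-fold. Saa1, Lbp, Wfdc2 and Ly6c1 lie far to the upper right, Trpv6 and Gpx3 at the lower left, and Msmb has opposite signs in the 2 mice.

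Transport genes gave a smaller share of calls. Of 54 ion and water transport genes in the tables, 1 of them Fxyd4 itself, 25 had enough counts and 10 were called higher and 1 lower by totals, or 5 higher and 1 lower with TMM factors. Of all genes, 9.03% were higher and 1.17% lower by totals, and 2.38% higher and 2.63% lower with TMM factors. The list's median log2 ratio was 0.88 and 0.87, against 0.49 and 0.56 for all genes.

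Atp1b1, a beta subunit of the sodium pump on which Fxyd4 acts, was at 1552 and 1381 CPM in the state and 691 and 609 CPM in secretory cells (1.17 ± 0.01). It was called higher by totals and not with TMM factors. Sgk1, a kinase that raises sodium transport, was at 565 and 577 CPM against 231 and 173 CPM and was also not called with TMM factors. Scnn1a, the alpha subunit of the epithelial sodium channel, was called with both scalings, at 100.5 and 82 CPM against 26.3 and 15.2 CPM (2.18 ± 0.35).

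Ano1, a calcium-activated chloride channel, stood at 351 and 357 CPM in the state and 95.2 and 94.9 CPM in secretory cells, with nearly the same ratio in both mice (1.90 ± 0.02). Slc12a2, which loads chloride into secreting epithelia, was at 3265 and 3459 CPM against 1963 and 1895 CPM and was not called. Kcne3, a potassium channel subunit, had 17 and 19 counts against 1 and 4. Car2, a carbonic anhydrase, had 37 and 34 against 8 and 20. Both were called with both scalings. Kcne3 passed the count limit through the state alone, as did Car2 in replicate 1. Aqp5, a water channel of glands, was at 171 and 121 CPM against 74 and 50.1 CPM, and Kcnn4, a calcium-activated potassium channel, at 96.1 and 58.7 CPM against 19.6 and 25.2 CPM, both called by totals only. Trpv6, an epithelial calcium entry channel, was the exception, at 10.4 and 14 CPM in the state and 71.9 and 72.4 CPM in secretory cells (-2.58 ± 0.30).

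Of 33 solute and metal transport genes, 24 had enough counts, 9 were called higher and 0 lower by totals, and 3 higher and 0 lower with TMM factors, against 9.03% and 2.38% of all genes called higher. Slc39a8, an importer of zinc and manganese, was at 385 and 464 CPM in the state and 65.5 and 95.9 CPM in secretory cells (2.41 ± 0.20). Slc40a1, the iron exporter ferroportin, had 23 and 13 counts against 11 and 2, and Slc6a14, an amino acid importer, 10 and 21 against 8 and 19. Slc40a1 in replicate 2 and Slc6a14 in replicate 1 passed the count limit through the state alone. Tfrc, the transferrin receptor, at 68.4 and 56.7 against 28.7 and 23.3 CPM, and the sodium-coupled importers Slc5a1 and Slc5a8 were called by totals only. Slc5a1, which takes up glucose, was at 78 and 80.0 CPM against 32.6 and 36.1 CPM, and Slc5a8, which takes up short-chain monocarboxylates, at 133 and 165 CPM against 55.3 and 47.7 CPM. The ferritin genes Fth1 and Ftl1 were not called. Fth1 was at 4784 and 4596 CPM against 3089 and 2704 CPM in secretory cells and 36432 and 26508 CPM in macrophages.

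**Figure D4:**
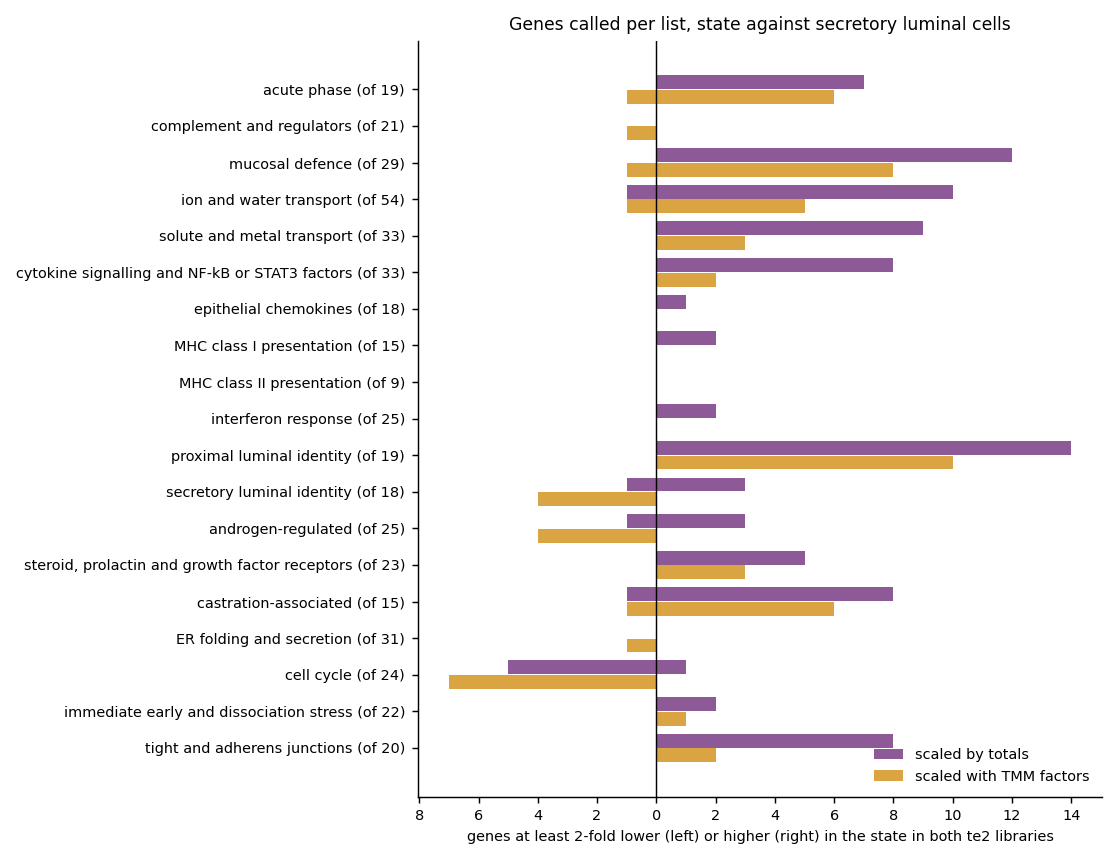
Number of genes per list called at least 2-fold higher (right of 0) or lower (left of 0) in the state than in secretory luminal cells in both te2 libraries, with totals (purple) and TMM factors (yellow); the number of list members in the tables is in brackets. The proximal luminal and mucosal defence lists have the most genes higher, 14 and 12 by totals, and cell cycle the most lower, 5 by totals and 7 with TMM factors.

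The label of a proximal luminal state was checked against markers. Of 19 proximal luminal genes in the tables, 18 had enough counts, 14 were called higher and 0 lower by totals, and 10 higher and 0 lower with TMM factors (background 9.03% and 2.38% higher). Krt4, a keratin of proximal luminal cells, was at 165 and 115 CPM in the state and 15.7 and 6.69 CPM in secretory cells (3.75 ± 0.51). Prom1, a membrane glycoprotein used as a progenitor marker, was at 108 and 76 CPM against 6.04 and 5.07 CPM (4.03 ± 0.18). Ly6a, the surface protein also called Sca-1, was at 1141 and 1459 CPM against 149.8 and 185 CPM. Psca did not separate the groups by 2-fold, at 1488 and 1129 CPM in the state and 804 and 661 CPM in secretory cells. Krt7 at 501 and 386 CPM against 172 and 163 CPM and Krt19 at 670.4 and 845 CPM against 331 and 376 CPM, both simple epithelial keratins, were called by totals only. The markers were not even within the state. A Krt4 UMI was seen in 43.2% and 37.3% of its cells. Krt4 was at 75.3 and 53.6 CPM in its cells with 1 to 10% Sbp and Spink1, against 197 and 154 CPM below 1%. Psca went the other way, as given below, and Ly6a had no common order.

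The 12 highest genes with at least 100 CPM, rule genes aside, included Igfbp7, which encodes an IGF-binding protein, at 129.9 and 139 CPM against 15.7 and 15.2 CPM. In basal cells Igfbp7 was higher still, at 257 and 182 CPM. It was also higher in the cells left out for Smr2 and Smr2l alone, at 354 and 263 CPM. Ppp1r1b, a regulator of protein phosphatase 1 that is also on the proximal luminal list, was at 164 and 180.0 CPM against 17.8 and 17.2 CPM. Gpr83, a G protein-coupled receptor, was at 433 and 315 CPM against 63.7 and 34.3 CPM. Mroh4 and the unnamed genes Gm12888 and Gm12873 also belonged to the 12, with Gm12888 at 341 and 343 CPM against 9.67 and 29 CPM. In the cells left out for Smr2 and Smr2l alone, Mroh4 and Gm12873 were above the state in both mice. Ly6c1 and Ly6a, also among the 12, were below it there.

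Among the lowest genes, Gpx3, a secreted glutathione peroxidase, was at 743 and 480.0 CPM in the state and 4249 and 3586 CPM in secretory cells, 5.72 and 7.47 times as high there (-2.71 ± 0.27). Crabp1, which binds retinoic acid in the cell, was at 45.9 and 59.3 CPM against 475 and 524 CPM (-3.26 ± 0.16), and Ccnd2, a D-type cyclin, at 78.8 and 70.7 CPM against 446 and 361 CPM (-2.43 ± 0.10). The metallothioneins Mt1 and Mt2, which bind zinc and copper, were at 618 and 772 and at 169.8 and 207 CPM in the state against 1282 and 1628 and 555 and 570.0 CPM. Fabp5, a fatty acid carrier, had 31 and 75 counts in the state and 601 and 823 in secretory cells, and stood at 3626 and 3931 CPM in macrophages. Srm, which makes the polyamine spermidine, was at 41.6 and 60.7 CPM against 125 and 127 CPM. Acox3, C2cd4a, Cela1, Col6a3 and Fam25c made up the rest of the 12 lowest.

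Secretory identity and androgen-regulated genes were called mostly higher by totals and only lower with TMM factors. Of 18 secretory luminal genes in the tables, 15 had enough counts, 3 were called higher and 1 lower by totals, and 0 higher and 4 lower with TMM factors. Wfdc3, a secreted protein with whey acidic protein domains, was at 3158 and 2596 CPM in the state and 4632 and 4305 CPM in secretory cells. Of 25 androgen-regulated genes, 21 had enough counts, 3 were called higher and 1 lower by totals and 0 higher and 4 lower with TMM factors. The background was 9.03% higher and 1.17% lower by totals and 2.38% and 2.63% with TMM factors, and 3 of 21 lies near the 9.03%. The 3 of 15 secretory genes higher by totals lay above it. In each list the 4 genes lower with TMM factors lay above a share of 2.63%. Of 23 receptor genes, 21 had enough counts and 5 were higher by totals and 3 with TMM factors. These 3 were Vdr, the vitamin D receptor, at 63.2 and 78.7 CPM against 18.4 and 15 CPM, Egfr, the epidermal growth factor receptor, at 41.6 and 31.3 CPM against 13 and 9.94 CPM, and Gper1, a membrane estrogen receptor, at 10 and 11 counts against 4 and 3. Gper1 passed the count limit through the state alone.

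The other lists are read against the same background of 9.03% of genes higher and 1.17% lower by totals, and 2.38% and 2.63% with TMM factors. Of 33 cytokine signalling genes, 24 had enough counts, 8 were called higher by totals and 2 with TMM factors, Cebpd, a C/EBP factor, at 37.2 and 48.7 CPM against 12.4 and 13.4 CPM, and Socs2, a suppressor of cytokine signalling, at 10.4 and 8.0 CPM against 3.02 and 1.83 CPM. None of these 33 genes was called lower. Of the genes with enough counts, MHC class I presentation had 2 of 13 called higher by totals and 0 with TMM factors, and interferon response 2 of 17 and 0, both near the background. MHC class II presentation had 0 of 4 called, and chemokines of epithelia 1 of 2 by totals and 0 with TMM factors. Junction genes had 8 of 17 higher by totals and 2 with TMM factors, namely Cdh1, the epithelial cadherin, at 379 and 385 CPM against 112 and 97.8 CPM, and Cldn8, a claudin of tight junctions. Of 15 genes linked to castration in the prostate, 1 of them Clu, 13 had enough counts, 8 were higher and 1 lower by totals, and 6 higher and 1 lower with TMM factors. Anxa3, a calcium-dependent membrane-binding protein, stood at 399 and 349 CPM against 83.1 and 56 CPM. Of 24 cell cycle genes, 21 had enough counts, 1 was higher and 5 were lower by totals, and 0 were higher and 7 lower with TMM factors. Rrm2, a subunit of ribonucleotide reductase, was at 8.66 and 4.67 CPM against 26.3 and 18.5 CPM. Of 31 genes of folding in the endoplasmic reticulum, 30 had enough counts, 0 were called by totals and 1 was lower with TMM factors. Of 22 immediate early and dissociation genes, 19 had enough counts, 2 were higher by totals and 1 with TMM factors, which was Jun, at 47.6 and 44.7 CPM against 9.97 and 11.8 CPM.

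The state was not uniform in its use of Clu and Fxyd4. In 91 and 126 cells Fxyd4 made up less than 25% of the Clu and Fxyd4 UMIs, in 57 and 63 cells 25 to 75%, and in 35 and 20 cells at least 75%. The split is made from genes of the rule and from small counts per cell, so the values below are descriptions. Gpx3 was at 1121 and 592 CPM in the Clu-dominated cells of te2 replicates 1 and 2, 635 and 375 in the middle and 98.3 and 68.5 in the Fxyd4-dominated cells. Krt4 ran the other way, at 98.8 and 85 CPM, 198 and 148 CPM and 254 and 206 CPM. Both mice gave the same order for both genes. The median share of Sbp and Spink1 fell along the same bins. It was 0.398% and 0.865% in the Clu-dominated cells, 0.137% and 0.194% in the middle and 0.083% and 0.187% in the Fxyd4-dominated cells.

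Wfdc2 was also highest in the Fxyd4-dominated cells, at 1705 and 1449 CPM against 952 and 646 CPM in the Clu-dominated cells. Slc39a8 was at 499.9 and 764 CPM against 304 and 406 CPM, and Lbp at 139 and 108 CPM against 51.3 and 72.4 CPM. Lrg1 was highest in the Clu-dominated cells of both mice, at 397 and 1086 CPM against 159.8 and 568 CPM in the Fxyd4-dominated cells. Saa1 had no common order, with its highest level in the middle group of replicate 1 and in the Clu-dominated cells of replicate 2. Acute phase genes therefore did not share 1 pattern within the state.

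**Figure D5:**
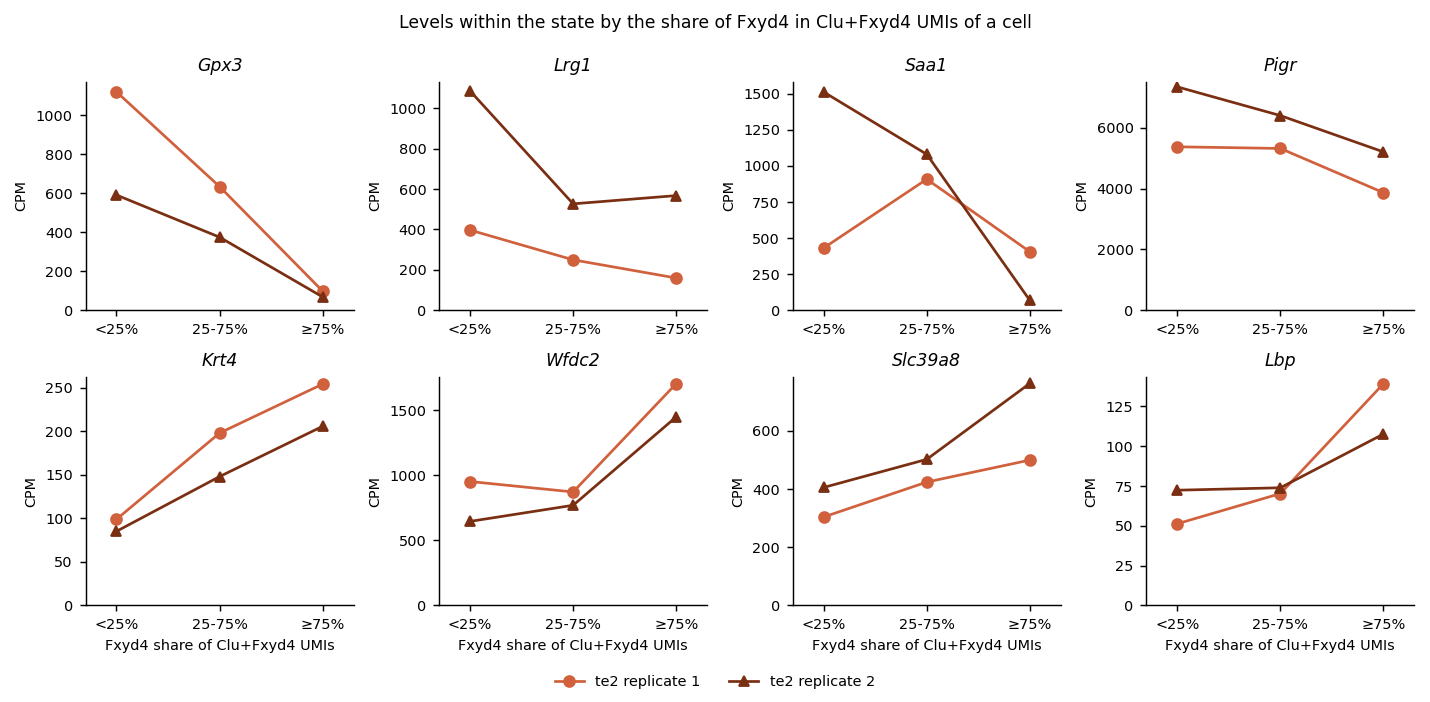
Levels of 8 genes in CPM within the state, for cells in which Fxyd4 made up less than 25%, 25 to 75% or at least 75% of the Clu and Fxyd4 UMIs, with 1 line per te2 library. Gpx3 and Pigr are lower and Krt4 and Slc39a8 are higher at each step toward Fxyd4 in both libraries, whereas Saa1 has no common order.

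A second split followed Sbp and Spink1, the secretory products limited to under 10% by the rule. They made up less than 1% of UMIs in 140 and 133 cells and 1 to 10% in 43 and 76. Wfdc2 stood at 1369.7 and 1086 CPM in the cells below 1% and 291 and 199 CPM in the others, and Igfbp7 at 171 and 213 CPM against 16.4 and 22.5 CPM. Saa1 was the reverse, at 400.4 and 1083 CPM against 1097 and 1548 CPM, as was Psca, at 1151 and 803 CPM against 2426 and 1649.7 CPM. In the 40 and 58 cells left out for Sbp and Spink1 alone, Saa1 was at 451 and 616 CPM, still above the 109 and 139.6 CPM of all secretory cells, and Krt4 was at 35.5 and 10.6 CPM. Cells that carried high Clu together with secretory products thus also held Saa1. The doublet caller marked none of the cells of the state. In C1q macrophages, which should lack them, Sbp and Spink1 had a median of 0.164% and 0.363% of UMIs, and their part as free RNA was not tested.

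The nearest cells by the rule were those with at least 0.2% Smr2 and Smr2l and otherwise the same limits, 53 and 39 cells in te2 and 0 in sham. Their sums were shallow, with 424223 and 288914 UMIs against 1154491 and 1499849 in the state. Of 6958 genes with enough counts, 149 were called higher in the state (2.14%) and 5 lower (0.0719%). Since a gene passed the count filter on its higher group alone, the deeper group passed more easily, and the split of calls leans to the state. Most of the genes described above did not separate the state from the Smr2-positive cells. Wfdc2 was at 1888 and 1222 CPM in Smr2-positive cells, Lcn2 at 238 and 218 CPM, Ano1 at 325 and 343 CPM, Krt4 at 153 and 145 CPM and Slc39a8 at 455 and 485 CPM, none of them called.

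Saa1 was the acute phase gene called between these groups. It stood at 585 and 1262 CPM in the state and 23.6 and 564 CPM in Smr2-positive cells, where its counts were 10 and 163. The mean log2 ratio was 2.9 ± 2.45 (SD, n = 2 libraries), so the mice differed widely in its size. Cldn8, at 30.3 and 13.3 CPM against 11.8 and 3.46 CPM, was also called higher in the state, on 35 and 20 counts against 5 and 1, so it passed the count limit through the state alone. Pigr, at 2275 and 5244 CPM in Smr2-positive cells, differed by over 2-fold in replicate 1 alone and was not called.

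The mice also differed from each other. Between te2 replicates 1 and 2, 511 of 9770 genes with enough counts differed at least 2-fold in the state (5.23%) and 526 of 11229 in secretory cells (4.68%). Saa1 and Lrg1 were among them in the state. Ly6c1 was higher in replicate 2 by 0.73 on the log2 scale and Lcn2 by 0.60, while Lbp, Cxcl17 and Ano1 differed by -0.02, 0.03 and 0.03. Wfdc2 and Pglyrp1 were lower in replicate 2, at log2 differences of -0.54 and -0.62. With 1 animal behind each library, animal, dissociation and depth cannot be told apart.

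The tests of te2 against sham in equally gated cells, and of gated against secretory cells in sham, were to be made with at least 20 gated cells in every library. Sham replicate 1 had 9, so neither was made and the counts are described. The sham gated cells held 112240 UMIs in all, and their median cells 2774 and 2715.5. Their Clu and Fxyd4 UMIs were nearly all Clu, with 158 and 346 counts of Clu and 2 and 2 of Fxyd4. Clu stood at 5937 and 4041 CPM, beside 2887 and 4829.8 CPM in the te2 state. The threshold sets only a lower limit on the sum of Clu and Fxyd4.

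Saa1, Ly6c1 and Lbp had no count in the sham gated cells. Against a floor of 3 counts over the group, the pooled te2 state was at least 36.2-fold higher for Saa1, at least 33.3-fold higher for Ly6c1 and at least 2.83-fold higher for Lbp. Lrg1 had 2 and 3 counts, Lcn2 0 and 2, and the ratio of the pooled te2 to the pooled sham level was 13.7 (95% interval 5.88 to 42.4) for Lrg1 and 12.8 (95% interval 3.52 to 106) for Lcn2. These values leaned on single libraries. Without te2 replicate 2 the bounds were 21.9-fold for Saa1 and 24.3-fold for Ly6c1, and the Lrg1 ratio was 6.69. Without sham replicate 2, which held most sham UMIs, the bounds were 8.58-fold for Saa1 and 7.89-fold for Ly6c1, the Lrg1 ratio was 8.15, Lcn2 had no sham count and a bound of 2.02-fold, and Lbp no longer had a bound above 1. Psca was not listed in the table of sham replicate 1 and had 4 counts in the gated cells of replicate 2. These ratios compare 2 mice with 2 and their exact intervals cover counting error only. Secretory cells also had higher levels of Saa1, Ly6c1, Lbp, Lrg1 and Lcn2 in te2 than in sham. In te2 and sham replicates 1 and 2, Saa1 was at 109 and 139.6 against 3.35 and 0.55 CPM in them. Ly6c1 was at 84 and 91.1 against 0 and 0 CPM, and Lrg1 at 102 and 178 against 5.95 and 4.95 CPM. For Lcn2 the levels were 30.5 and 54.6 against 1.12 and 0.55 CPM, and for Lbp 8.16 and 6.9 against 1.49 and 0.55 CPM.

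Other proximal and transport genes differed in direction. Wfdc2 was at 1127 and 3036 CPM in sham, a te2 to sham ratio of 0.345 (95% interval 0.306 to 0.391), and against sham replicate 1 alone the ratio was 0.791. Krt4 was at 564 and 502 CPM, with a ratio of 0.265 (95% interval 0.20 to 0.356), and Cyp2f2, a cytochrome P450 enzyme of proximal and airway epithelium, at 1916 and 2347 CPM, with a ratio of 0.138 (95% interval 0.119 to 0.159). Atp1b1 was at 3495 and 2733 CPM (0.50 (95% interval 0.446 to 0.561)) and Scnn1a at 526 and 292 CPM. Slc39a8, Cxcl17 and Krt7 lay close to their te2 levels, with ratios of 1.07 (95% interval 0.796 to 1.48), 1.03 (95% interval 0.837 to 1.28) and 0.874 (95% interval 0.668 to 1.16), though that of Cxcl17 was 1.87 without sham replicate 2. Ano1 and Sgk1 were higher in te2, with ratios of 2.09 (95% interval 1.33 to 3.49) and 3.21 (95% interval 2.07 to 5.27), and Sgk1 was at 5.07 without sham replicate 2. Ly6a was at 0 and 187 CPM and had a ratio of 9.27 (95% interval 5.7 to 16.2). Secretory cells of te2 also held more Ano1, Sgk1 and Ly6a than those of sham. Ano1 was at 95.2 and 94.9 against 37.9 and 31.1 CPM in them. Sgk1 was at 231 and 173 against 61 and 85.7 CPM, and Ly6a at 149.8 and 185 against 8.55 and 3.57 CPM.

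Pigr was at 939 and 899 CPM in sham gated cells and 1246 and 961 CPM in sham secretory cells, so that the gated cells were not the higher group there. In the state of te2 it was at 5039 and 6870.0 CPM. Fam3d was at 714 and 1004 CPM in sham gated cells, a te2 to sham ratio of 1.91 (95% interval 1.57 to 2.33). Secretory cells of te2 also held more Fam3d, at 923 and 787 CPM against 358 and 377 CPM in those of sham. Sham cells inside the thresholds thus held Krt4, Wfdc2 and Slc39a8, while Saa1 and Ly6c1 were at 0 counts in both sham libraries.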

How the data were processed

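The authors deposited tables of raw UMI counts per gene and cell, 1 per library. The submitters' processing notes name Seurat 5.0.1, R 4.3.2, bustools 0.39.4, kallisto 0.46.1 and build GRCm39, with no role given for each. A gene missing from a table was entered as 0. Cells were gated by the thresholds given above, and counts were summed per library and gate and scaled to CPM by totals, or with TMM factors of edgeR 4.0.16. Doublets were called with scrublet in scanpy 1.11.5. The calling script was tested on simulated counts. The members of the state, its marker genes and the gene lists were chosen with earlier results of these data known. The 94 genes chosen by rule are list members of acute phase, complement, mucosal defence and transport with at least 50 CPM, the 4 largest called ratios of every other list, the 12 highest and 12 lowest genes with at least 100 CPM, and the markers. Those given with counts alone, and Krt7, Krt19, Psca, Cyp2f2, Msmb, Wfdc3 and the weaker transport and defence genes, were added after their values were seen. The motifs were chosen after the genes were, and the letters of the NF-kB motif were settled after matches to other forms had been seen. Each group has 2 animals, and SDs are over 2 libraries. A few genes are not reported here.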

Additional observations from a re-analysis of the deposited data

Results flagged for a closer look

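Pigr was singled out because its ratio of gated to secretory luminal cells pointed up in both te2 libraries and down in both sham libraries. The log2 ratio was 1.24 and 1.73 in te2 and -0.41 and -0.10 in sham, and the mean in te2 exceeded that in sham by 1.74. The sham values rest on 25 and 77 counts in 9 and 28 cells, where 33.2 and 82.3 would be expected at the level of sham secretory cells. The difference between the groups was not tested.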

How the results depend on the processing

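No paired analysis was possible because the comparisons between groups that would take a replicate block were not run, and the ratios of the state to other cells, taken within each te2 library, carry no test since the rule chose the cells. Sham replicate 1 had 9 gated cells, under the minimum of 20, so the planned edgeR and DESeq2 fits of te2 against sham and of gated against secretory cells in sham, with all their alternatives, were left out. For the state against secretory luminal cells, 973 genes were called (861 higher, 112 lower). Totals without the genes of the rule gave 518 (296 and 222), TMM factors 503 (239 and 264), no minimum count with a pseudocount of 1 gave 3627 (3533 higher), cells thinned to 1000 UMIs 431 (394 and 37) and a 4-fold limit 135 (111 and 24). All 239 higher calls with TMM factors were among the 861. One library alone gave 1985 to 2261 genes (1620 to 1953 higher, 308 to 365 lower), since the other library then need not agree. For the state against Smr2-positive cells, 154 were called (149 and 5). The pseudocount gave 3911 (49 and 3862), thinning 2 lower, the 4-fold limit 19 (17 and 2), and 1 library alone 1026 to 1076 (876 to 994 higher, 82 to 150 lower). Thinning left 4 of its 103 higher genes shared with the 149, and the 0.4% threshold 15 of 126. The mean share of gated cells was 10.0% in te2 and 1.45% in sham. A threshold of 0.4% gave 5.38% and 0.662%, thinning 4.87% and 0.662%, and Sbp and Spink1 below 1%, an alternative chosen after seeing the data, 6.94% and 0.419%. Single genes were recomputed for the 94 genes chosen by rule against secretory cells and for 7 markers against Smr2-positive cells. No called value among these changed sign under an alternative run for it, whereas some small uncalled ratios, such as those of Ftl1, Slc39a1 and Atp1b3, did with TMM factors. The other settings (at least 2000 UMIs, at most 10% mitochondrial UMIs, called doublets left out) kept each count within 1.5 times. Few cells and low depth limit the sham gated cells, 9 and 28 in number, and the Smr2-positive cells. Ratios of te2 to sham with each library left out, chosen after seeing the data, stand beside the values they move.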
